A study of Mus musculus with 16 samples.

Results

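The genes described here are 42 genes of the cell cycle, picked by name from the 53714 genes counted in mouse liver. They were divided into 4 regulators of G1, 14 genes of DNA replication (the S phase genes) and 24 genes of mitosis, some of which, such as Ccna2, Top2a and Mki67, begin to rise in S phase. All 42 had enough reads to be tested. The read filter kept Ccnb1, Ube2c and Bub1 only through libraries of mice without Slc25a47 in hepatocytes, where they are high. In fed mice without Slc25a47 in hepatocytes, 26 of the 42 were higher than in controls and none was lower by edgeR, where 14% of all genes tested were higher and 16.9% lower. Of the 26, 21 were mitotic genes. Cdc20, Ccnb1 and Ube2c, which drive entry into and exit from mitosis, had the largest differences, with log2 fold changes of 2.87 ± 0.50, 2.67 ± 0.54 and 2.66 ± 0.42 (SE). The S phase genes differed less, with a median log2 difference of 0.35 against 1.67 for the mitotic genes.

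The study measured polyadenylated RNA in the livers of male C57BL/6 Slc25a47tm1c(EUCOMM)Hmgu mice aged 9 weeks. Slc25a47 encodes a mitochondrial carrier protein of the liver. This allele is given for all 16 libraries, and the genotype was given as Slc25a47hep+/+ for the controls (WT) and Slc25a47hep-/- for the knockouts (KO), the second a deletion in hepatocytes by its name. The Cre line is not given in the sources used here. Mice of each genotype were sampled in the fed state on chow or after an overnight fast, which gave 4 groups of 4 libraries, named by feeding state and genotype (fed WT and so on). Replicate numbers below are those of the labels. Nothing in the labels says whether the libraries of a group came from separate mice, so p-values measure the spread between these libraries.

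Gene reads per library numbered 19.6 to 27.3 M. Slc25a47 itself stood at 461 to 1139 CPM (reads scaled to the size of the library) in the 8 WT libraries and at 81.8 to 330.5 CPM in the 8 KO libraries, with no overlap. All 12 hepatocyte markers were expressed in every group. Fasted WT replicates 2 and 4 held transcripts of the exocrine pancreas, at a summed 1685 and 465.9 CPM over the marker list. The other 14 libraries stood at 4.62 to 75.0 CPM. Results for fasted WT are therefore given with and without replicates 2 and 4. The 75.0 CPM was that of fasted KO replicate 1, in a group with a median of 5.29 CPM. Fed KO replicate 3 stood at 22.65 CPM, in a group with a median of 10.57 CPM. In fed WT the mean sum was 26.99 CPM, of which Cela1 made up 26.74 CPM. Fasted KO replicate 1 and fed KO replicate 3 were also highest in their groups for 15 and 17 of the 24 mitotic genes. Fasted WT replicates 2 and 4 were highest in theirs for 4 and 3 of the 24. Fed KO replicate 4, with the lowest pancreas sum of its group (7.47 CPM), was highest for 7. A link between these pancreas and mitotic values was not tested. The 42 genes together took 1871 to 7113 reads per library, or 0.00917% to 0.0311% of gene reads.

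Most hepatocytes of an adult liver rest outside the cell cycle and can return to it after tissue loss or injury. Cyclin D with its kinases starts the passage through G1, and the E2F factors then switch on the genes that license replication origins, copy DNA and supply nucleotides. A later wave, kept down in resting cells by the DREAM complex, depends in dividing cells on FoxM1 and the MuvB complex. It brings cyclin B with Cdk1, the kinases and motors of the spindle, and the ubiquitin ligase that ends mitosis.

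Per kilobase of exons, the most abundant of the 42 genes in fed WT was Pcna (7.65 CPM per kb), followed by Ccnd1 (4.16), Mcm7 (3.06), Tk1 (2.70) and Rrm2 (2.38). The lowest were Cdc6 (0.0576 CPM per kb), Cenpe (0.0507) and Bub1 (0.0469). The 5 highest were thus 4 S phase genes and a cyclin of G1. Many mitotic genes were counted at under 1 CPM in WT, where a library gives each of them few reads.

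**Figure D1:**
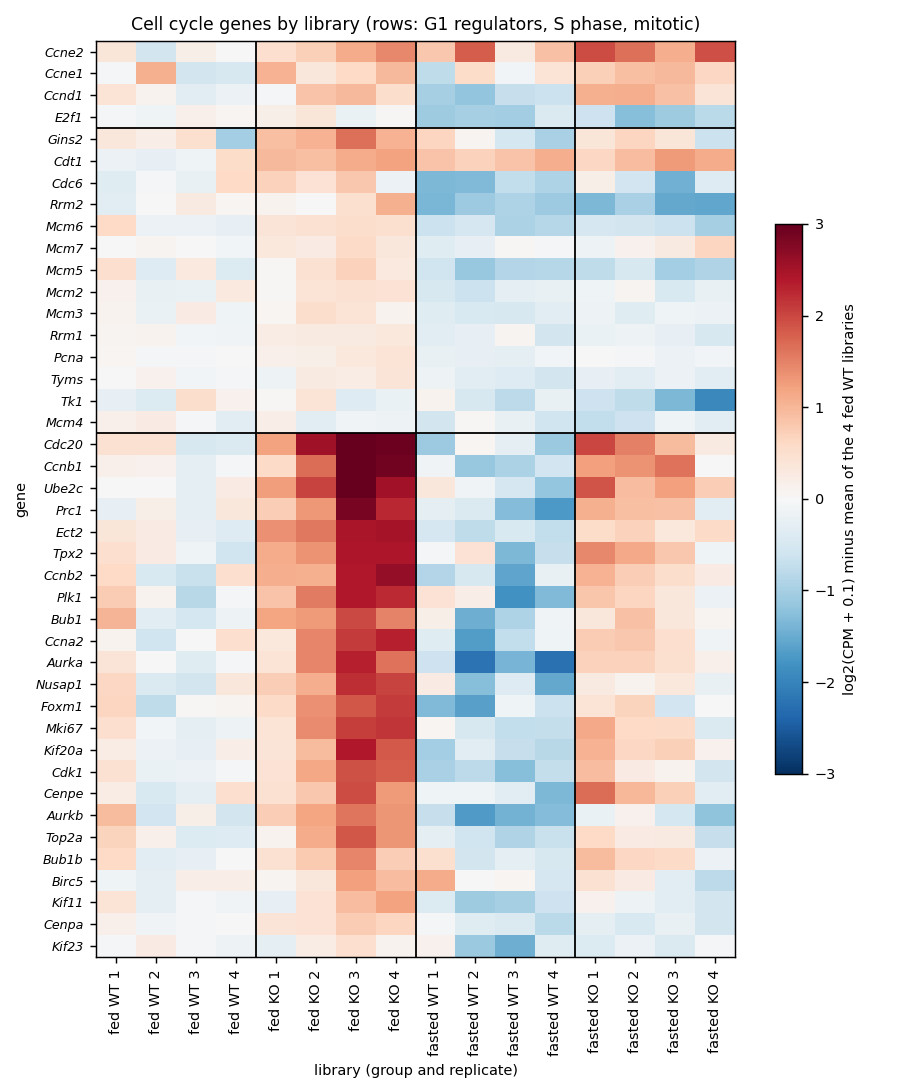
Heat map of the 42 genes (rows, G1 regulators, S phase and mitotic genes from the top) in the 16 libraries (columns, by group and replicate). Colour gives log2(CPM + 0.1) minus the mean of the 4 fed WT libraries, with the colour scale ending at -3 and 3; mitotic rows are reddest in fed KO replicates 3 and 4, and most rows are blue in fasted WT.

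Between fed KO and fed WT, 26 of the 42 genes were higher and 0 were lower by edgeR's quasi-likelihood test at an adjusted p under 0.05. Values after ± are standard errors of the log2 fold change. Of all genes tested, 14% were higher and 16.9% lower. Of the mitotic genes 21 of 24 were higher, of the S phase genes 4 of 14 and of the G1 regulators 1 of 4. The median log2 fold change was 1.67 over the mitotic genes, 0.35 over the S phase genes and 0.62 over the G1 regulators, against -0.01 over all genes tested. Every fed KO library stood above every fed WT library for 13 of 24 mitotic and 5 of 14 S phase genes, compared with 12.9% of all genes tested. With scaling by library totals alone, 35.1% of all genes were higher and 6.58% lower, the median over all genes was 0.215 and 11 of the 14 S phase genes were higher, while the mitotic count was 23. The S phase count was 2 without fed WT replicate 2, without fed WT replicate 4 or without fed KO replicate 3.

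Between fasted KO and fasted WT, 14 of the 42 genes were higher and 0 lower, where 13.8% of all genes tested were higher and 14.5% lower. The 14 were 12 of the 24 mitotic genes, Mcm7 of the 14 S phase genes and Ccnd1 of the 4 G1 regulators. The median log2 fold change was 1.26 over the mitotic genes, 0.11 over the S phase genes and 0.74 over the G1 regulators, against 0.01 over all genes tested. Every fasted KO library stood above every fasted WT library for 9 of 24 mitotic and 0 of 14 S phase genes, compared with 14.2% of all genes. All 12 mitotic genes called higher in fasted KO were also among the 21 of 24 called higher in fed KO. With 21 of 24 called there, most of any 12 would be among them. The mitotic count was 5 without fasted KO replicate 1, 6 without fasted WT replicate 3 and 7 without fasted KO replicate 2, and was 6 with no filter on low counts. Over all 42 genes the count was 8 without fasted WT replicate 3 and 7, 9 and 9 without fasted KO replicates 1, 2 and 3. With library totals alone 30.9% of all genes were higher and 6.49% lower, the median over all genes was 0.20, and 23 of the 42 genes were higher.

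Without fasted WT replicates 2 and 4, 4 of the 42 genes were higher in fasted KO than in fasted WT, where 10.9% of all genes were higher. They were Ccnd1 at 1.73 (adjusted p = 0.00254), Ccne2 at 1.22 (adjusted p = 0.0175), Ccnb2 at 2.15 (adjusted p = 0.0420) and Aurka at 1.71 (adjusted p = 0.0357) by edgeR. The median log2 fold change without these libraries was 1.10 over the mitotic genes (1.26 with them), 0.13 over the S phase genes (0.11 with them) and 1.29 over the 4 G1 regulators (0.74 with them). Single genes moved in both directions, with Ccne2 and Ccnb2 at 0.69 and 1.55 and Aurka at 2.32 in the fit with all libraries.

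**Figure D2:**
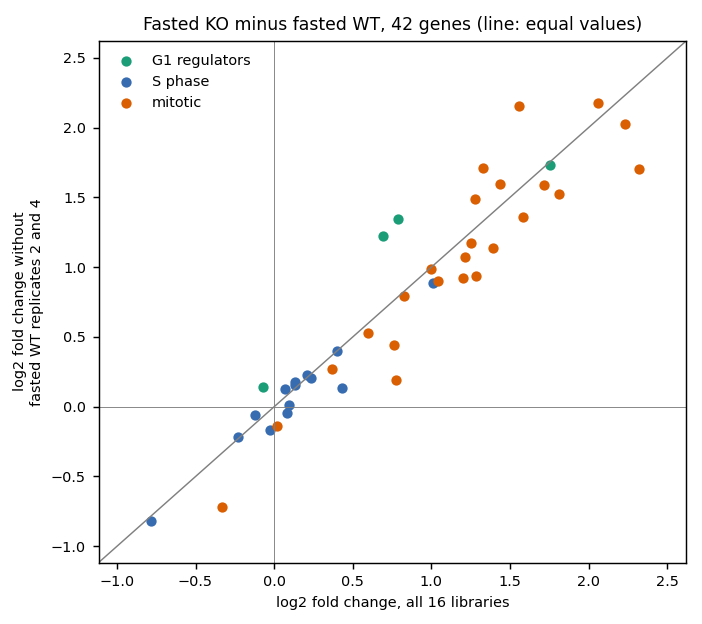
Log2 fold change of fasted KO against fasted WT for each of the 42 genes with all 16 libraries (horizontal) and without fasted WT replicates 2 and 4 (vertical), coloured by list; the line marks equal values. Aurka lies farthest right (2.32) and Cdc20 highest (2.18), and S phase genes lie near 0 except Tk1 at the lower left and Cdc6 (1.01 on the horizontal axis).

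After the fast, 13 of the 42 genes were lower and 2 higher in WT, where 18.3% of all genes tested were lower and 16.2% higher. The 13 were 7 of the 14 S phase genes, 4 of the 24 mitotic genes and 2 of the 4 G1 regulators. The median log2 fold change was -0.36 over the S phase genes and -0.71 over the mitotic genes, against -0.02 over all genes. Every fasted WT library stood below every fed WT library for 8 of 14 S phase and 6 of 24 mitotic genes, compared with 17.6% of all genes. Without fasted WT replicates 2 and 4, 4 genes were lower and 1 higher, where 14.5% and 13.6% of all genes were, and no mitotic gene was among them. The count of lower genes was 7 without fed WT replicate 1 or without fasted WT replicate 2. For S phase genes it was then 4 and 3, and for mitotic genes it was 1 without fed WT replicate 1 and 2 without fed WT replicate 3 or 4 or fasted WT replicate 2, 3 or 4.

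In KO, 32 of the 42 genes were lower after the fast and 1 was higher, where 20.3% of all genes tested were lower and 21.1% higher. The 32 were 20 of the 24 mitotic genes, 11 of the 14 S phase genes and E2f1. The median log2 fold change was -1.20 over the mitotic genes and -0.54 over the S phase genes, against -0.0044 over all genes. Every fasted KO library stood below every fed KO library for 9 of 14 S phase and 7 of 24 mitotic genes, compared with 18.7% of all genes. Of the 13 genes lower after fasting in WT, 12 were also lower in KO. With 32 of the 42 lower in KO, most of any 13 would be. Without fed KO replicate 3 the count of lower genes was 21 and that of mitotic genes 11. With library totals alone 15.9% of all genes were higher and 25.9% lower. The fed KO libraries enter both the fed genotype comparison and this one, so a gene high in fed KO is pushed up in the first and down in the second by the same libraries.

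The difference between the genotype effects in fasted and fed mice was tested as an interaction. By edgeR 0 of the 42 genes passed in either direction, where 1.07% of all genes tested were higher and 0.633% lower (0.633% and 0.726% with library totals alone). At an unadjusted p under 0.05 there were 6 of the 42, against 2371 of all 13905 genes tested, a like share. This count therefore does not set the 42 genes apart. The DESeq2 Wald test called 1 in each direction, Ccnd1 and Cdt1. The 6 were Ccnd1 at 1.15 ± 0.32 (adjusted p = 0.0903), Cdt1 at -0.93 ± 0.27 (adjusted p = 0.0882), Rrm2 at -0.69 ± 0.31 (adjusted p = 0.262), Birc5 at -1.08 ± 0.50 (adjusted p = 0.281), Cenpa at -0.55 ± 0.21 (adjusted p = 0.187) and Ect2 at -0.87 ± 0.38 (adjusted p = 0.251) by edgeR. A positive value means a log2 fold change of KO against WT that was higher in fasted than in fed mice. Ccnd1 was the one gene of the 6 with a positive value.

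**Figure D3:**
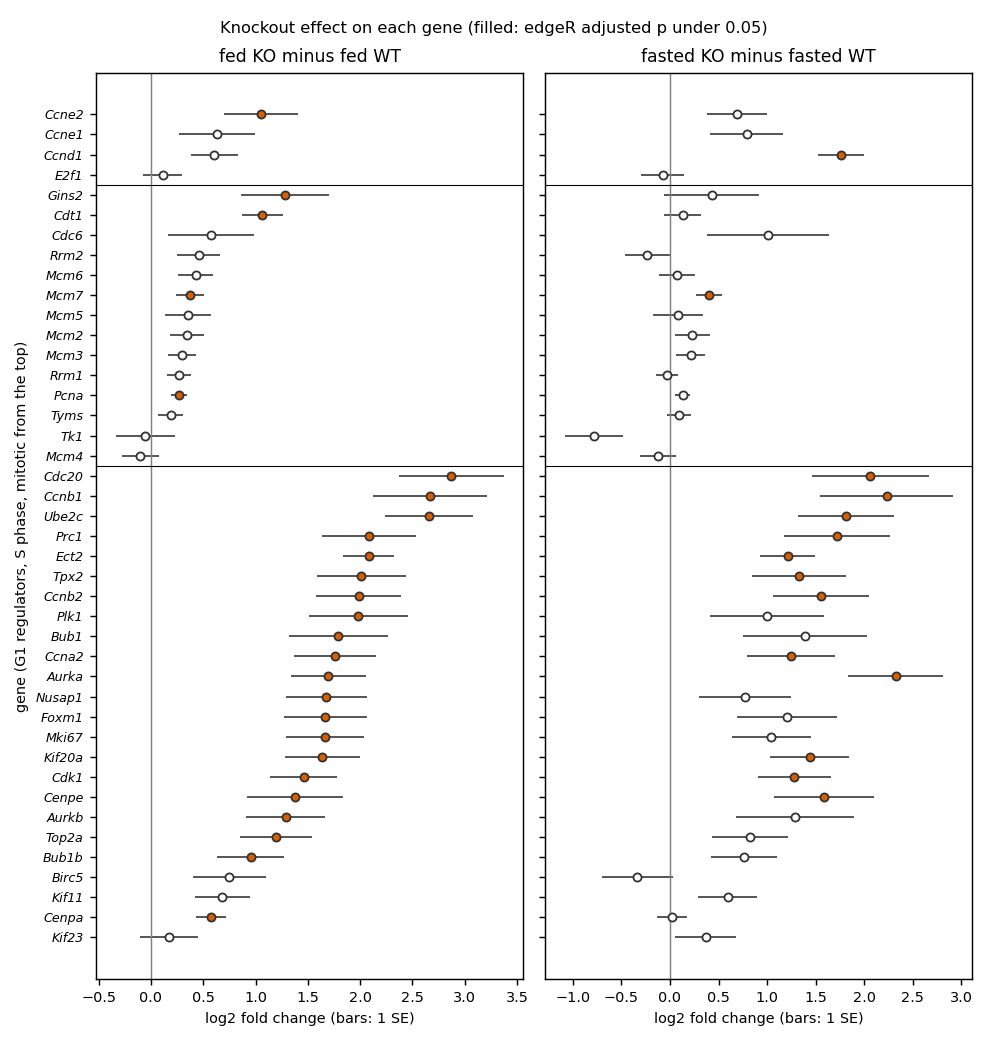
Log2 fold change of KO against WT for each of the 42 genes in fed mice (left) and fasted mice (right), with bars of 1 SE and filled points where the edgeR adjusted p was under 0.05. In fed mice the 24 mitotic values at the bottom lie between 0.17 and 2.87, and the 14 S phase values between -0.10 and 1.28.

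The S phase and mitotic genes also parted within the groups. The mitotic genes summed to 37.2, 26.5, 24.6 and 28.5 CPM in fed WT replicates 1 to 4, to 42.1, 64.4, 119.4 and 103.8 CPM in fed KO, to 25.4, 18.3, 16.3 and 16 CPM in fasted WT and to 48.4, 39.6, 36.0 and 24.2 CPM in fasted KO. Each fed KO library was above all fed WT libraries, and the fed KO libraries differed among themselves by more than the fed WT libraries did. Fed KO replicate 1 had the lowest value of its group for 23 of the 24 mitotic genes, and the highest value stood in replicate 3 for 17 and in replicate 4 for 7. In fasted KO, replicate 4 was lowest for 21 and replicate 1 highest for 15 of the 24. Fed WT replicate 1 was highest in its group for 18 of the 24.

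The summed level of the S phase genes was 85.8 to 95.3 CPM in fed WT, 101.2 to 113.9 in fed KO, 69.4 to 72.9 in fasted WT and 71.8 to 75.1 in fasted KO. It was higher in every fed KO library than in any fed WT library, and the fasted groups overlapped. The mean log2 CPM of the mitotic genes minus that of the S phase genes was -1.62, -2.03, -2.27 and -1.91 in fed WT, -1.64, -1.13, -0.38 and -0.53 in fed KO, -1.85, -2.28, -2.43 and -2.38 in fasted WT, and -0.91, -1.15, -1.19 and -1.68 in fasted KO. Fed KO replicate 1 lay within the fed WT range on this measure, and the fasted KO libraries all lay above the fasted WT libraries. Because the libraries hold bulk RNA, a larger number of cycling cells and more of these transcripts per cycling cell cannot be told apart.

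**Figure D4:**
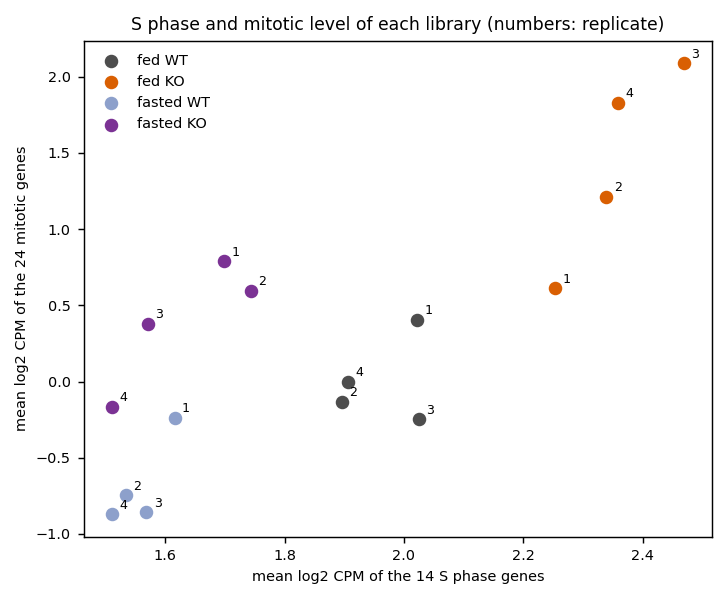
Mean log2 CPM of the 14 S phase genes (horizontal) and of the 24 mitotic genes (vertical) in each of the 16 libraries, coloured by group and numbered by replicate. Fasted KO lies above fasted WT at a like S phase level, and the fed KO libraries spread upwards from replicate 1 to the right of all others.

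Promoter sequences were compared because the mitotic genes moved together and the S phase genes less so. RefSeq entries of build GRCm38.p6 were found for 33 of the 42 genes, 19 mitotic, 12 S phase and 2 G1 genes. The 250 bases before the start site were searched on both strands for the cell cycle homology region (CHR, TTTGAA), a site known for DREAM and MuvB, for the CCAAT box (CCAAT), known for the factor NF-Y, and for a strict E2F site (TTTGGCGC or TTTCCCGC). The CHR letters stood in 9 of 19 mitotic promoters (47.4%), in 1 of 12 S phase promoters (8.33%) and in 18.3% of the promoters of 27025 genes. CCAAT stood in 17 of 19 (89.5%), 8 of 12 (66.7%) and 37.5%. The E2F letters stood in 0 of 19 mitotic and 4 of 12 S phase promoters (33.3%), which were those of Cdc6, Mcm5, Mcm6 and Mcm7, and in 1.51% of all. In the further genes described below, the CHR letters stood in 20 of 53 mitotic promoters (37.7%) and 7 of 41 replication promoters (17.1%). The E2F letters stood in 4 (7.55%) and 6 (14.6%) of them. CCAAT stood in 30 (56.6%) and 24 (58.5%), about as often in both of these lists. The 9 mitotic genes with the CHR letters were Ccnb2, Cdc20, Cdk1, Ect2, Kif11, Mki67, Prc1, Top2a and Ube2c, and all 9 promoters also held CCAAT. Kif11 was the one of these not called in fed KO. Aurka, Bub1, Bub1b, Ccnb1, Cenpa, Cenpe, Nusap1 and Plk1 were called higher there without the CHR letters in this window. Birc5 and Kif23, also without them, were not called. Calls in fed KO were thus about as common without the CHR letters as with them. A match of letters is a description and not a bound site.

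The 180 bases before the start site are printed for 3 mitotic genes that carry both CHR and CCAAT, for Mcm6, which carries E2F letters, and for Cdt1, the S phase gene with the smallest p in fed mice. Capitals mark the searched letters on either strand (CCAAT reads ATTGG where it lies on the other strand). They are given from 5′ to 3′ on the strand of the gene.
Cdc20, chr4:118437344-118437523, minus strand: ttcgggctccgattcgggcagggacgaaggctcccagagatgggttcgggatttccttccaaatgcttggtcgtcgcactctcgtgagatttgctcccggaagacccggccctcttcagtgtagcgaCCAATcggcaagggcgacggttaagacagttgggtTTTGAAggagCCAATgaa
Ccnb2, chr9:70421555-70421734, minus strand: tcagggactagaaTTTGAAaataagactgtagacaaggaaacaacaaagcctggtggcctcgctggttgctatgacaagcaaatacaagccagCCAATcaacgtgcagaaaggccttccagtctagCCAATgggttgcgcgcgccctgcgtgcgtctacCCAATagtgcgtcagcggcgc
Cdk1, chr10:69352913-69353092, minus strand: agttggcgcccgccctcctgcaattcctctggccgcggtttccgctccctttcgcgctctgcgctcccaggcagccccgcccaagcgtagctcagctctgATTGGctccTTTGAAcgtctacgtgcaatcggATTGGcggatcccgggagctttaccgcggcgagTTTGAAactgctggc
Mcm6, chr1:128359706-128359885, minus strand: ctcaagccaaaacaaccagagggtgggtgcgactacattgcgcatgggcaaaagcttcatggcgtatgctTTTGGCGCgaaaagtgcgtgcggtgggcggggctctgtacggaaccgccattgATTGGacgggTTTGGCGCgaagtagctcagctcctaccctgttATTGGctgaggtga
Cdt1, chr8:122567835-122568014, plus strand: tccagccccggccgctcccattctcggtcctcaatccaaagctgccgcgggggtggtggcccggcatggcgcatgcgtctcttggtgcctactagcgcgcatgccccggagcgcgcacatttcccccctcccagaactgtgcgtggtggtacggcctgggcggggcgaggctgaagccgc
With -1 as the last base before the start site, the CHR letters of Cdc20 begin at -18 with CCAAT on both sides of them. Cdk1 holds CHR letters at -71 and at -15. In Ccnb2 they lie farther off, at -167, and 3 CCAAT boxes follow. Mcm6 has 2 E2F matches, at -110 and -47, and Cdt1 has no match to any of the searched letters in this stretch.

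Among the G1 regulators, Ccnd1 (cyclin D1, which activates Cdk4 and Cdk6 in response to growth signals) was counted at 25.4, 20.8, 15.2 and 16.9 CPM in fed WT, 18.5, 34.5, 37.9 and 27.9 in fed KO, 9.55, 8.45, 11.8 and 12.2 in fasted WT, and 40.5, 41.2, 35.5 and 25.3 in fasted KO. In fasted mice all KO libraries stood above all WT libraries, while in fed mice KO replicate 1 lay within the WT range. The log2 fold change was 1.76 ± 0.24 (adjusted p = 8.40e-05) in fasted and 0.60 ± 0.23 (adjusted p = 0.0558) in fed mice by edgeR, and the fed difference passed with the DESeq2 Wald test (adjusted p = 0.0165), without robust estimation (0.0362) and with library totals alone (0.00751). Ccnd1 fell after the fast in WT, by 0.89 ± 0.24 (adjusted p = 0.00929) on the log2 scale by edgeR, a call lost without both fasted WT replicates 2 and 4 (0.0564). In KO it did not pass.

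Ccne2 (cyclin E2, a partner of Cdk2 at the start of S phase) was at 0.913, 0.44, 0.788 and 0.686 CPM in fed WT, 1.02, 1.19, 1.61 and 2.04 in fed KO, 1.27, 2.69, 0.848 and 1.34 in fasted WT, and 2.94, 2.39, 1.59 and 2.91 in fasted KO. Each fed KO library was above each fed WT library, while the fasted groups overlapped, as did fed and fasted libraries of each genotype. The edgeR log2 fold change was 1.05 ± 0.35 (adjusted p = 0.0295) between fed KO and fed WT and 0.69 ± 0.30 (adjusted p = 0.0982) between the fasted groups. Ccne2 was 1 of 2 genes that rose after the fast in WT, by 1.12 ± 0.36 (adjusted p = 0.0202), and the only one of the 42 that rose in KO, by 0.76 ± 0.30 (adjusted p = 0.0488). The fed genotype call was lost without fed WT replicate 2 or 4 or fed KO replicate 3 or 4 (edgeR adjusted p 0.0598 to 0.0964). The fasting call was lost in WT without fed WT replicate 2 or fasted WT replicate 2 (edgeR adjusted p 0.0686 to 0.117) and without both fasted WT replicates 2 and 4 (0.282), and in KO without fed WT replicate 1, 3 or 4, fed KO replicate 1, 2 or 3, fasted WT replicate 1 or 4 or fasted KO replicate 1, 2 or 4 (edgeR adjusted p 0.0516 to 0.137), with DESeq2 size factors (0.0511), with library totals alone (0.0767), with no filter on low counts (0.0530) and without robust estimation (0.0530).

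E2f1 (a transcription factor that switches on replication genes) stood at 2.03, 1.92, 2.37 and 2.21 CPM in fed WT, 2.41, 2.76, 1.84 and 2.18 in fed KO, 0.955, 1.02, 0.982 and 1.55 in fasted WT, and 1.34, 0.81, 0.961 and 1.17 in fasted KO. Every fasted library lay below every fed library of its genotype, and the genotypes overlapped in both states. By edgeR the log2 fold change after the fast was -0.91 ± 0.21 (adjusted p = 0.00217) in WT and -1.10 ± 0.20 (adjusted p = 0.000269) in KO. Its genotype values were 0.11 ± 0.19 in fed mice and -0.07 ± 0.22 in fasted mice, the second turning positive with library totals alone (0.11). Ccne1 (cyclin E1), at 0.265 to 1.20 CPM over the 16 libraries, passed in none of the 4 comparisons, with genotype log2 values of 0.63 ± 0.37 (adjusted p = 0.199) in fed and 0.79 ± 0.37 (adjusted p = 0.124) in fasted mice by edgeR.

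Of the genes that license replication origins, Cdt1 (which loads the MCM helicase onto origins) was at 1.17, 1.12, 1.21 and 2.01 CPM in fed WT, 2.73, 2.57, 3.0 and 3.2 in fed KO, 2.49, 2.21, 2.5 and 2.95 in fasted WT, and 2.1, 2.63, 3.38 and 2.99 in fasted KO. All fed KO libraries were above all fed WT libraries, and fed WT was also below fasted WT without overlap, so fed WT was the group that stood apart. The edgeR log2 fold change was 1.06 ± 0.20 (adjusted p = 0.000554) between the fed groups, 0.89 ± 0.20 (adjusted p = 0.00228) after the fast in WT and 0.13 ± 0.19 (adjusted p = 0.648) between the fasted groups. Cdc6 (a loading factor for MCM) was the least abundant S phase gene per kilobase, at 0.203, 0.28, 0.232 and 0.49 CPM in fed WT, 0.53, 0.421, 0.576 and 0.243 in fed KO, 0.0531, 0.0538, 0.134 and 0.103 in fasted WT, and 0.336, 0.162, 0.0418 and 0.194 in fasted KO. Fasted WT lay below fed WT in every library, while the genotypes overlapped. It fell after the fast by 1.71 ± 0.58 (adjusted p = 0.0289) on the log2 scale in WT and by 1.27 ± 0.44 (adjusted p = 0.0265) in KO by edgeR. The WT call was lost without fed WT replicate 4 or fasted WT replicate 1 or 2 (edgeR adjusted p 0.0718 to 0.0998) and without both fasted WT replicates 2 and 4 (0.124). The KO call was lost without fed KO replicate 1 or 3 or fasted KO replicate 2, 3 or 4 (edgeR adjusted p 0.0501 to 0.0862), with no filter on low counts (0.0519) and with the DESeq2 Wald test (0.0523).

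The MCM genes encode the 6 subunits of the replicative helicase. Mcm7 was at 13.5, 14.4, 13.5 and 12.8 CPM in fed WT, 16.8, 16, 20.2 and 17.1 in fed KO, 10.5, 11.5, 13.8 and 13.1 in fasted WT, and 12.2, 14.8, 16.2 and 21.2 in fasted KO. Fed KO stood above fed WT in every library and the fasted groups overlapped. It was the only MCM gene called higher in KO, by 0.37 ± 0.13 (adjusted p = 0.0405) in fed and 0.40 ± 0.13 (adjusted p = 0.0323) in fasted mice by edgeR. The fed call was lost without fed WT replicate 1, 2, 3 or 4 or fed KO replicate 1, 3 or 4 (edgeR adjusted p 0.0532 to 0.137) and without both fasted WT replicates 2 and 4 (0.0547). The fasted call was lost without fasted WT replicate 1 or 2 or fasted KO replicate 3 or 4 (edgeR adjusted p 0.0625 to 0.161), without both fasted WT replicates 2 and 4 (0.113) and with only the 8 libraries compared (0.0784).

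Mcm6 was at 7.97, 4.64, 4.64 and 4.41 CPM in fed WT, 6.93, 7.2, 7.56 and 7.38 in fed KO, 3.34, 3.66, 2.68 and 2.84 in fasted WT, and 3.65, 3.56, 3.3 and 2.6 in fasted KO. Every fasted library was below every fed library of its genotype, and fed WT replicate 1 lay above all fed KO libraries, which otherwise were higher than fed WT. Mcm6 fell by 0.79 ± 0.18 (adjusted p = 0.00213) after the fast in WT and by 1.15 ± 0.17 (adjusted p = 3.86e-05) in KO on the log2 scale by edgeR. Its fed genotype value was 0.43 ± 0.17 (adjusted p = 0.0578), which passed with the DESeq2 Wald test (adjusted p = 0.0454) and with library totals alone (0.00511). Mcm5 was at 3.04, 1.6, 2.64 and 1.57 CPM in fed WT, 2.16, 2.95, 3.49 and 2.62 in fed KO, 1.38, 0.915, 1.12 and 1.14 in fasted WT, and 1.22, 1.5, 1.0 and 1.09 in fasted KO. Fasted libraries were again below fed libraries in both genotypes, and KO and WT overlapped. Its edgeR log2 fold change after the fast was -0.95 ± 0.25 (adjusted p = 0.00543) in WT and -1.22 ± 0.23 (adjusted p = 0.000344) in KO. The WT call of Mcm5 was lost without both fasted WT replicates 2 and 4 (0.0581).

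Mcm3 was at 4.21, 3.4, 4.68 and 3.58 CPM in fed WT, 4.12, 5.75, 5.3 and 4.27 in fed KO, 3.02, 2.85, 2.81 and 3.1 in fasted WT, and 3.53, 3.04, 3.59 and 3.5 in fasted KO. All fasted libraries lay below the fed libraries of their genotype. Mcm3 fell by 0.43 ± 0.15 (adjusted p = 0.0290) in WT and by 0.51 ± 0.14 (adjusted p = 0.00611) in KO on the log2 scale by edgeR. The WT call was lost without fed WT replicate 1 or 3 or fasted WT replicate 2 or 3 (edgeR adjusted p 0.0660 to 0.105), without both fasted WT replicates 2 and 4 (0.0898) and with only the 8 libraries compared (0.0558). Mcm2 was at 3.1, 2.44, 2.46 and 3.53 CPM in fed WT, 2.94, 3.79, 3.95 and 3.88 in fed KO, 2.02, 1.78, 2.32 and 2.43 in fasted WT, and 2.6, 3.0, 2.05 and 2.41 in fasted KO. In WT the fasted libraries were all below the fed ones, and in KO replicate 1 of the fed group reached into the fasted range. By edgeR Mcm2 fell in KO, by 0.53 ± 0.17 (adjusted p = 0.0144), a call lost without fasted KO replicate 3 (edgeR adjusted p 0.0547). Mcm4, at 2.52 to 5.08 CPM, passed in none of the 4 comparisons, and its genotype values of -0.10 ± 0.18 in fed and -0.12 ± 0.19 in fasted mice turned positive with library totals alone (0.13 and 0.07).

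Gins2 (a subunit of the GINS part of the helicase) was at 0.406, 0.36, 0.464 and 0.0981 CPM in fed WT, 0.653, 0.728, 1.15 and 0.728 in fed KO, 0.531, 0.323, 0.179 and 0.103 in fasted WT, and 0.42, 0.527, 0.418 and 0.155 in fasted KO. Each fed KO library was above each fed WT library, and replicate 3 was the highest of fed KO. Gins2 differed by a log2 fold change of 1.28 ± 0.42 (adjusted p = 0.0262) in fed mice, and it fell by 1.10 ± 0.40 (adjusted p = 0.0329) after the fast in KO. The fed call was lost without fed WT replicate 2 or 4 or fed KO replicate 3 (edgeR adjusted p 0.0504 to 0.0990), and the fasting call without fed KO replicate 3 or fasted KO replicate 3 or 4 (edgeR adjusted p 0.0559 to 0.121). Of the exonic bases of Gins2, 67.3% also lie in exons of Gse1 on the opposite strand. The kit keeps strand, but the strand setting of the counting is not given in the sources used here. Reads in more than 1 gene were left out, so Gins2 may lack reads of the shared bases if strand was not used. The same holds in smaller part for Kif20a with Cdc23 (29.3%), Ccnd1 with LTO1 (23.4%), Ube2c with Tnnc2 (22.8%), Ccne2 with Ints8 (17.4%), Ccna2 with Exosc9 (12.5%) and Prc1 with Rccd1 (11.1%).

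Pcna (the sliding clamp that holds DNA polymerase on its template) was at 19, 17.9, 17.9 and 18.6 CPM in fed WT, 20.6, 20.6, 22.9 and 24.3 in fed KO, 15.7, 15.4, 15 and 17.3 in fasted WT, and 18.3, 17.6, 16.3 and 17.2 in fasted KO. Every fed KO library lay above every fed WT library, and fasted libraries lay below fed ones in each genotype. The spread within a group was small, and the edgeR log2 fold change was 0.27 ± 0.07 (adjusted p = 0.0113) in fed and 0.13 ± 0.08 (adjusted p = 0.209) in fasted mice, -0.21 ± 0.08 (adjusted p = 0.0356) after the fast in WT and -0.35 ± 0.07 (adjusted p = 0.00107) in KO. The fed call was lost with no filter on low counts (0.0533). The WT fasting call was lost without fed WT replicate 1, 3 or 4, fasted WT replicate 1, 2 or 3 or fasted KO replicate 1 (edgeR adjusted p 0.0518 to 0.0988), with DESeq2 size factors (0.0541), with no filter on low counts (0.0629), with the DESeq2 Wald test (0.0635) and with only the 8 libraries compared (0.0756). Named pseudogenes exist for Pcna (2), Tyms (1), Ccnb1 (1) and Ccnb2 (1), and reads that fit a copy equally well may be missing from their counts.

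Among the genes of nucleotide supply, Rrm2 (the regulated subunit of ribonucleotide reductase) was at 5.17, 6.48, 7.88 and 6.82 CPM in fed WT, 6.97, 6.47, 9.18 and 13.7 in fed KO, 2.44, 3.01, 3.39 and 3.0 in fasted WT, and 2.52, 3.28, 2.17 and 2.14 in fasted KO. All fasted libraries lay below all fed libraries of their genotype, and the genotypes overlapped. Rrm2 had the most negative fasting values of the S phase genes in KO, -1.84 ± 0.22 (adjusted p = 3.30e-06), and was at -1.15 ± 0.22 (adjusted p = 0.000526) in WT by edgeR. Rrm1 (the large subunit) was at 11.2, 11.3, 10.1 and 9.81 CPM in fed WT, 12.4, 12.7, 12.8 and 13.1 in fed KO, 8.49, 8.88, 11.1 and 7.24 in fasted WT, and 9.15, 9.48, 8.9 and 7.57 in fasted KO. Fed KO was above fed WT and above fasted KO in every library. The fall in KO after the fast was -0.54 ± 0.11 (adjusted p = 0.000782), and the fed genotype value was 0.27 ± 0.11 (adjusted p = 0.0742) by edgeR, which passed with only the 8 fed libraries (adjusted p = 0.0291) and with library totals alone (0.00161).

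Tyms (thymidylate synthase) was at 6.09, 6.56, 5.66 and 5.74 CPM in fed WT, 5.42, 7.28, 6.99 and 7.81 in fed KO, 5.36, 4.68, 4.55 and 4.08 in fasted WT, and 5.04, 4.82, 5.26 and 4.82 in fasted KO. Fasted libraries stood below fed libraries in both genotypes. It fell by 0.37 ± 0.12 (adjusted p = 0.0279) in WT and by 0.46 ± 0.12 (adjusted p = 0.00468) in KO by edgeR. The WT call was lost without fed WT replicate 1 or 2 or fasted WT replicate 2, 3 or 4 (edgeR adjusted p 0.0544 to 0.0831) and without both fasted WT replicates 2 and 4 (0.184). Tk1 (thymidine kinase of the cytosol) was at 11.4, 10.2, 19.8 and 14.8 CPM in fed WT, 14, 18, 10.3 and 11.7 in fed KO, 14.7, 9.79, 7.86 and 11.6 in fasted WT, and 8.77, 7.94, 5.3 and 3.5 in fasted KO. Every fasted KO library was below every fed KO library, and the lowest values of all 16 libraries were those of fasted KO replicates 3 and 4. Tk1 fell after the fast in KO by 1.09 ± 0.29 (adjusted p = 0.00887). Its genotype value in fasted mice was -0.78 ± 0.30 (adjusted p = 0.0649) by edgeR, the most negative of the 42, and it passed with the DESeq2 Wald test (adjusted p = 0.0123) and without robust estimation (0.0416).

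Mki67 and Top2a mark cycling cells from S phase to mitosis. Mki67 (the Ki-67 protein, which coats mitotic chromosomes) was at 3.75, 2.44, 2.13 and 2.35 CPM in fed WT, 3.51, 7.12, 11.2 and 11.9 in fed KO, 2.71, 1.83, 1.52 and 1.55 in fasted WT, and 5.83, 4.01, 3.93 and 1.9 in fasted KO. Fed KO replicates 2 to 4 were above all WT libraries and replicate 1 lay within the fed WT range. Mki67 rose by 1.66 ± 0.38 (adjusted p = 0.00400) in fed KO and fell by 1.11 ± 0.36 (adjusted p = 0.0222) after the fast in KO on the log2 scale by edgeR. Between the fasted groups it was 1.04 ± 0.41 (adjusted p = 0.0692), which passed with the DESeq2 Wald test (0.0155), without robust estimation (0.0484), with only the 8 libraries compared (0.0349) and with library totals alone (0.0237). The KO fasting call was lost without fed KO replicate 3 or 4 or fasted KO replicate 4 (edgeR adjusted p 0.0593 to 0.0700), with no filter on low counts (0.0603) and with only the 8 libraries compared (0.0875).

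Top2a (topoisomerase II alpha, which untangles sister chromosomes) was at 3.25, 2.24, 1.48 and 1.52 CPM in fed WT, 2.16, 4.44, 7.6 and 5.24 in fed KO, 1.65, 1.29, 1.03 and 1.24 in fasted WT, and 3.11, 2.43, 2.46 and 1.2 in fasted KO. Its fed KO replicate 1 lay within the fed WT range, with the other 3 above it. Top2a differed by a log2 fold change of 1.20 ± 0.34 (adjusted p = 0.0153) in fed KO and 0.82 ± 0.39 (adjusted p = 0.128) in fasted KO, and -1.08 ± 0.34 (adjusted p = 0.0169) after the fast in KO. The fed call was lost without fed KO replicate 3 (edgeR adjusted p 0.0610), and the fasting call without fed KO replicate 3 or fasted KO replicate 4 (edgeR adjusted p 0.0513 to 0.0708), with no filter on low counts (0.0510) and with only the 8 libraries compared (0.0532). Foxm1 (a transcription factor of the mitotic wave) was at 0.913, 0.28, 0.556 and 0.588 CPM in fed WT, 0.857, 1.57, 2.27 and 2.67 in fed KO, 0.159, 0.108, 0.491 and 0.31 in fasted WT, and 0.755, 0.932, 0.334 and 0.544 in fasted KO. Its fed KO replicates 2 to 4 were above all fed WT libraries, and the fasted groups overlapped. Foxm1 was 1.67 ± 0.40 (adjusted p = 0.00400) in fed KO, 1.20 ± 0.52 (adjusted p = 0.0899) in fasted KO and -1.50 ± 0.38 (adjusted p = 0.00412) after the fast in KO by edgeR. The first and last of these passed.

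The mitotic cyclins and their kinase shared a pattern. Ccnb1 (cyclin B1, the main partner of Cdk1) was at 0.406, 0.40, 0.278 and 0.343 CPM in fed WT, 0.571, 1.34, 4.03 and 3.3 in fed KO, 0.318, 0.108, 0.134 and 0.207 in fasted WT, and 0.965, 1.05, 1.29 and 0.35 in fasted KO. Each KO library was above each WT library of its feeding state. The edgeR log2 fold change was 2.67 ± 0.54 (adjusted p = 0.00152) in fed mice, 2.23 ± 0.68 (adjusted p = 0.0218) in fasted mice and -1.33 ± 0.46 (adjusted p = 0.0287) after the fast in KO. The fasted genotype call was lost without fasted WT replicate 2 or 3 or fasted KO replicate 3 (edgeR adjusted p 0.0556 to 0.0615), with no filter on low counts (0.0620) and without both fasted WT replicates 2 and 4 (0.130). The fasting call was lost without fed KO replicate 3 or 4 or fasted KO replicate 4 (edgeR adjusted p 0.0829 to 0.130), with no filter on low counts (0.0787) and with only the 8 libraries compared (0.118).

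Ccnb2 (cyclin B2) was at 1.37, 0.60, 0.51 and 1.27 CPM in fed WT, 1.96, 1.92, 5.03 and 5.87 in fed KO, 0.425, 0.592, 0.223 and 0.724 in fasted WT, and 1.89, 1.5, 1.29 and 1.05 in fasted KO. KO was again above WT in every library of each feeding state, and fasted KO was below fed KO without overlap. Its edgeR values were 1.98 ± 0.41 (adjusted p = 0.00171) in fed, 1.55 ± 0.50 (adjusted p = 0.0270) in fasted mice and -1.36 ± 0.38 (adjusted p = 0.00894) after the fast in KO. In fasted mice the call was lost without fasted WT replicate 1 or 3 or fasted KO replicate 1 or 2 (edgeR adjusted p 0.0509 to 0.0863) and with no filter on low counts (0.0755). Without both fasted WT replicates 2 and 4 it passed. Cdk1 (the kinase that starts mitosis) was at 2.44, 1.52, 1.53 and 1.67 CPM in fed WT, 2.41, 4.02, 6.83 and 6.41 in fed KO, 0.849, 0.969, 0.67 and 1.03 in fasted WT, and 3.4, 2.11, 1.88 and 1.17 in fasted KO. The fasted groups did not overlap, while fed KO replicate 1 was just below fed WT replicate 1. The log2 fold change was 1.46 ± 0.32 (adjusted p = 0.00243) in fed and 1.28 ± 0.38 (adjusted p = 0.0173) in fasted mice and -1.20 ± 0.31 (adjusted p = 0.00496) after the fast in KO by edgeR. Its fasted genotype call was lost without fasted WT replicate 3 or fasted KO replicate 1 (edgeR adjusted p 0.0562 to 0.0656) and without both fasted WT replicates 2 and 4 (0.0582).

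Ccna2 (cyclin A2, active from S phase to early mitosis) was at 1.37, 0.80, 1.25 and 1.81 CPM in fed WT, 1.59, 3.68, 5.68 and 6.7 in fed KO, 0.955, 0.323, 0.714 and 1.14 in fasted WT, and 2.22, 2.27, 1.84 and 1.17 in fasted KO. The fasted groups did not overlap, and fed KO replicate 1 was below fed WT replicate 4. By edgeR Ccna2 was 1.76 ± 0.39 (adjusted p = 0.00315) in fed and 1.25 ± 0.45 (adjusted p = 0.0497) in fasted KO and -1.23 ± 0.37 (adjusted p = 0.0140) after the fast in KO. In fasted mice the call was lost without fed WT replicate 1, 3 or 4, fed KO replicate 2 or 3, fasted WT replicate 1, 2 or 3 or fasted KO replicate 1, 2 or 3 (edgeR adjusted p 0.0509 to 0.123), with DESeq2 size factors (0.0519), with no filter on low counts (0.130) and without both fasted WT replicates 2 and 4 (0.158). The fasting call was lost without fed KO replicate 4 (edgeR adjusted p 0.0505).

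Cdc20 and Ube2c belong to the machinery that degrades cyclin B at anaphase. Cdc20 (an activator of the anaphase-promoting complex) was at 0.812, 0.80, 0.371 and 0.392 CPM in fed WT, 1.43, 3.75, 7.49 and 4.95 in fed KO, 0.212, 0.592, 0.447 and 0.207 in fasted WT, and 2.56, 1.78, 1.17 and 0.699 in fasted KO. KO was above WT in every library of each state, with replicate 1 the lowest of fed KO. The edgeR log2 fold change was 2.87 ± 0.50 (adjusted p = 0.000586) in fed and 2.06 ± 0.61 (adjusted p = 0.0188) in fasted mice and -1.51 ± 0.44 (adjusted p = 0.0117) after the fast in KO. The fasted genotype call was lost without fasted WT replicate 1 or 4 or fasted KO replicate 1 (edgeR adjusted p 0.0538 to 0.0573), with no filter on low counts (0.0582) and without both fasted WT replicates 2 and 4 (0.0820). The fasting call was lost with only the 8 libraries compared (0.0580).

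Ube2c (the ubiquitin-conjugating enzyme of that complex) was at 0.355, 0.36, 0.278 and 0.441 CPM in fed WT, 0.979, 1.76, 3.88 and 2.52 in fed KO, 0.478, 0.323, 0.223 and 0.103 in fasted WT, and 1.59, 0.77, 0.961 and 0.66 in fasted KO. No KO library reached down to a WT library of its feeding state. Ube2c rose by 2.66 ± 0.42 (adjusted p = 0.000144) in fed and 1.81 ± 0.49 (adjusted p = 0.00983) in fasted KO, and fell by 1.20 ± 0.36 (adjusted p = 0.0117) after the fast in KO by edgeR. The fasted genotype call was lost without both fasted WT replicates 2 and 4 (0.0846), and the fasting call without fed KO replicate 3 (edgeR adjusted p 0.0754).

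Bub1 and Bub1b hold back anaphase until chromosomes are attached. Bub1 was at 0.457, 0.12, 0.0927 and 0.147 CPM in fed WT, 0.53, 0.575, 0.998 and 0.679 in fed KO, 0.212, 0, 0.0447 and 0.155 in fasted WT, and 0.252, 0.405, 0.251 and 0.194 in fasted KO. The value of 0 in fasted WT replicate 2 allows up to 3 reads, or 0.161 CPM, by counting error alone. Every fed KO library was above every fed WT library and every fasted KO library, and fed WT replicate 1 was well above the other 3 of its group. Bub1 was 1.79 ± 0.47 (adjusted p = 0.00760) in fed KO, 1.39 ± 0.64 (adjusted p = 0.112) in fasted KO and -1.32 ± 0.43 (adjusted p = 0.0191) after the fast in KO by edgeR. The last call was lost without fed KO replicate 3 or fasted KO replicate 4 (edgeR adjusted p 0.0584 to 0.0790). Bub1b was at 1.32, 0.64, 0.696 and 0.834 CPM in fed WT, 1.18, 1.53, 2.5 and 1.46 in fed KO, 1.22, 0.538, 0.67 and 0.569 in fasted WT, and 1.72, 1.34, 1.29 and 0.738 in fasted KO. Fed KO replicate 1 was below fed WT replicate 1, and the groups overlapped in every comparison. It was higher in fed KO by 0.95 ± 0.32 (adjusted p = 0.0298) by edgeR, a call lost without fed WT replicate 2, 3 or 4 or fed KO replicate 3 (edgeR adjusted p 0.0619 to 0.136).

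Of the mitotic kinases, Aurka (Aurora A, which matures the spindle poles) was at 1.17, 0.879, 0.649 and 0.834 CPM in fed WT, 1.18, 2.57, 4.8 and 2.86 in fed KO, 0.531, 0.108, 0.268 and 0.103 in fasted WT, and 1.47, 1.46, 1.25 and 0.971 in fasted KO. KO was above WT in every library of each state, and fasted WT was below fed WT in every library. Aurka had the highest fasted genotype value of the 42 genes, 2.32 ± 0.49 (adjusted p = 0.00157), beside 1.70 ± 0.36 (adjusted p = 0.00180) in fed mice by edgeR. It fell after the fast by 1.78 ± 0.52 (adjusted p = 0.0125) in WT and by 1.15 ± 0.34 (adjusted p = 0.0110) in KO. The WT fasting call was lost without both fasted WT replicates 2 and 4 (0.148), and that in KO without fed KO replicate 3 (edgeR adjusted p 0.0691).

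Tpx2 (which activates Aurora A on the spindle) was at 1.07, 0.879, 0.649 and 0.441 CPM in fed WT, 1.67, 1.99, 4.34 and 4.37 in fed KO, 0.69, 1.02, 0.223 and 0.413 in fasted WT, and 2.14, 1.7, 1.34 and 0.66 in fasted KO. Fed KO was above fed WT throughout, while fasted KO replicate 4 lay below fasted WT replicates 1 and 2. The edgeR values were 2.01 ± 0.43 (adjusted p = 0.00209) in fed and 1.33 ± 0.48 (adjusted p = 0.0488) in fasted KO and -1.08 ± 0.39 (adjusted p = 0.0334) after the fast in KO. Between fasted groups the call was lost without fed WT replicate 1, 2, 3 or 4, fasted WT replicate 1, 3 or 4 or fasted KO replicate 1, 2 or 3 (edgeR adjusted p 0.0511 to 0.140), with DESeq2 size factors (0.0511), with no filter on low counts (0.120) and without both fasted WT replicates 2 and 4 (0.0734). The fasting call was lost without fed KO replicate 3 or 4 or fasted KO replicate 3 or 4 (edgeR adjusted p 0.0759 to 0.111), with no filter on low counts (0.0871) and with only the 8 libraries compared (0.0611).

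Aurkb (Aurora B, the kinase of the chromosomal passenger complex) was at 0.863, 0.24, 0.464 and 0.245 CPM in fed WT, 0.734, 1.03, 1.42 and 1.17 in fed KO, 0.212, 0.0538, 0.0893 and 0.103 in fasted WT, and 0.336, 0.446, 0.251 and 0.117 in fasted KO. Fasted libraries were below fed libraries in both genotypes, without overlap. Aurkb was higher in fed KO by 1.29 ± 0.38 (adjusted p = 0.0154) and fell after the fast by 1.91 ± 0.57 (adjusted p = 0.0145) in WT and by 1.91 ± 0.40 (adjusted p = 0.000858) in KO by edgeR. The fed call was lost without fed WT replicate 2 or 4 or fed KO replicate 3 (edgeR adjusted p 0.0530 to 0.0585). The WT fasting call was lost without fed WT replicate 1 (edgeR adjusted p 0.0688) and without both fasted WT replicates 2 and 4 (0.107). Plk1 (polo-like kinase 1) was at 0.761, 0.44, 0.185 and 0.392 CPM in fed WT, 0.816, 1.38, 2.57 and 2.28 in fed KO, 0.584, 0.484, 0.0447 and 0.103 in fasted WT, and 0.797, 0.689, 0.543 and 0.35 in fasted KO. Fed KO was above fed WT and above fasted KO in every library. It was 1.98 ± 0.47 (adjusted p = 0.00434) in fed KO, 1.0 ± 0.59 (adjusted p = 0.224) in fasted KO and -1.56 ± 0.44 (adjusted p = 0.00909) after the fast in KO by edgeR, and the fasted genotype value did not pass.

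Birc5 (survivin, another member of the passenger complex) ranged from 0.699 to 3.15 CPM and passed in none of the 4 comparisons. Its edgeR values were 0.75 ± 0.35 (adjusted p = 0.113) in fed and -0.33 ± 0.36 (adjusted p = 0.529) in fasted mice, and the fed value passed with library totals alone (0.0295). Birc5 was thus among the 3 mitotic genes not called in fed KO, with Kif11 and Kif23.

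The motors and cytokinesis genes differed among themselves. Ect2 (the exchange factor that activates RhoA at the cleavage furrow) was at 2.13, 1.96, 1.34 and 1.23 CPM in fed WT, 4.32, 5.09, 9.37 and 9.61 in fed KO, 1.11, 0.915, 1.16 and 0.93 in fasted WT, and 2.43, 2.67, 2.05 and 2.45 in fasted KO. KO was above WT in every library of each state, and fasted was below fed in every library of each genotype. Ect2 had the smallest p of the 42 genes in fed mice, 2.08 ± 0.25 (adjusted p = 5.68e-06), and was 1.21 ± 0.28 (adjusted p = 0.00331) in fasted mice and -1.56 ± 0.23 (adjusted p = 3.87e-05) after the fast in KO by edgeR. Its call in fasted mice was lost without both fasted WT replicates 2 and 4 (0.0509). Prc1 (which bundles microtubules of the central spindle) was at 0.761, 1.04, 0.742 and 1.18 CPM in fed WT, 1.59, 2.41, 7.14 and 4.76 in fed KO, 0.743, 0.646, 0.312 and 0.207 in fasted WT, and 2.02, 1.78, 1.75 and 0.699 in fasted KO. Fed KO was above fed WT in every library, while fasted KO replicate 4 lay below fasted WT replicate 1. Its values were 2.08 ± 0.45 (adjusted p = 0.00257) in fed and 1.72 ± 0.55 (adjusted p = 0.0280) in fasted KO and -1.35 ± 0.41 (adjusted p = 0.0159) after the fast in KO by edgeR. The fasted genotype call was lost without fasted WT replicate 3 or 4 or fasted KO replicate 1, 2 or 3 (edgeR adjusted p 0.0579 to 0.0815), with no filter on low counts (0.0805) and without both fasted WT replicates 2 and 4 (0.134), and the fasting call without fed KO replicate 3 (edgeR adjusted p 0.0722) and with only the 8 libraries compared (0.0672).

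Kif20a (a kinesin of the central spindle) was at 2.03, 1.52, 1.44 and 2.01 CPM in fed WT, 2.28, 3.41, 9.56 and 6.45 in fed KO, 0.796, 1.34, 1.03 and 0.93 in fasted WT, and 3.65, 2.71, 2.88 and 1.9 in fasted KO. KO was above WT in every library of each state. By edgeR Kif20a was 1.64 ± 0.36 (adjusted p = 0.00278) in fed and 1.44 ± 0.40 (adjusted p = 0.0141) in fasted KO and -0.96 ± 0.34 (adjusted p = 0.0307) after the fast in KO. Between fasted groups the call was lost without both fasted WT replicates 2 and 4 (0.0613). The fasting call was lost without fed KO replicate 3 or 4 or fasted KO replicate 2, 3 or 4 (edgeR adjusted p 0.0583 to 0.154), with no filter on low counts (0.0867) and with only the 8 libraries compared (0.121).

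Kif11 (the kinesin that pushes spindle poles apart) was at 2.44, 1.48, 1.76 and 1.67 CPM in fed WT, 1.51, 2.49, 3.49 and 4.32 in fed KO, 1.33, 0.807, 0.848 and 1.14 in fasted WT, and 1.97, 1.62, 1.42 and 1.2 in fasted KO. Fasted WT was below fed WT in every library, and the genotypes overlapped. It fell after the fast by 0.83 ± 0.30 (adjusted p = 0.0407) in WT and by 0.92 ± 0.27 (adjusted p = 0.00966) in KO by edgeR, and its fed genotype value was 0.68 ± 0.27 (adjusted p = 0.0574), which passed with library totals alone (0.00908). The WT fasting call was lost without fed WT replicate 1, 3 or 4 or fasted WT replicate 2, 3 or 4 (edgeR adjusted p 0.0526 to 0.128) and without both fasted WT replicates 2 and 4 (0.161). Kif23 (a kinesin of the midbody), at 0.357 to 1.69 CPM, passed in none of the 4 comparisons, with 0.17 ± 0.28 (adjusted p = 0.670) in fed and 0.37 ± 0.31 (adjusted p = 0.411) in fasted mice by edgeR.

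Cenpa (the histone H3 variant of centromeres) was at 5.53, 4.56, 4.78 and 4.95 CPM in fed WT, 6.53, 6.67, 8.45 and 7.81 in fed KO, 4.78, 3.82, 3.62 and 2.79 in fasted WT, and 4.07, 3.56, 4.22 and 3.34 in fasted KO. Fed KO was above fed WT and above fasted KO in every library, and the fasted groups overlapped. Cenpa was 0.57 ± 0.14 (adjusted p = 0.00520) in fed KO and 0.02 ± 0.15 (adjusted p = 0.945) in fasted KO, and fell by 0.40 ± 0.15 (adjusted p = 0.0463) in WT and by 0.95 ± 0.14 (adjusted p = 4.27e-05) in KO after the fast by edgeR. The value near 0 between the fasted groups turned negative without fasted WT replicates 2 and 4 (-0.14). The WT fasting call was lost without fed WT replicate 1, 3 or 4, fed KO replicate 4, fasted WT replicate 2, 3 or 4 or fasted KO replicate 1, 2 or 3 (edgeR adjusted p 0.0505 to 0.149), with DESeq2 size factors (0.0538), with the DESeq2 Wald test (0.0514), without both fasted WT replicates 2 and 4 (0.306) and with only the 8 libraries compared (0.0932).

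Nusap1 (a microtubule-binding protein of the spindle) was at 1.27, 0.56, 0.51 and 1.03 CPM in fed WT, 1.39, 1.8, 3.99 and 3.49 in fed KO, 0.955, 0.269, 0.58 and 0.207 in fasted WT, and 0.965, 0.851, 1.0 and 0.66 in fasted KO. Fed KO was above fed WT and above fasted KO in every library. By edgeR Nusap1 was 1.68 ± 0.39 (adjusted p = 0.00344) in fed KO and -1.61 ± 0.38 (adjusted p = 0.00244) after the fast in KO, and 0.78 ± 0.47 (adjusted p = 0.240) between the fasted groups. Cenpe (a kinetochore motor) was at 0.507, 0.28, 0.325 and 0.637 CPM in fed WT, 0.612, 0.804, 1.92 and 1.17 in fed KO, 0.371, 0.377, 0.312 and 0.103 in fasted WT, and 1.55, 0.932, 0.752 and 0.311 in fasted KO. The groups overlapped in all 4 comparisons, with fed KO replicate 1 below fed WT replicate 4 and fasted KO replicate 4 below fasted WT replicates 1, 2 and 3. Cenpe was 1.38 ± 0.46 (adjusted p = 0.0290) in fed and 1.58 ± 0.51 (adjusted p = 0.0272) in fasted KO by edgeR. The fed call was lost without fed WT replicate 2 or 3 or fed KO replicate 3 or 4 (edgeR adjusted p 0.0536 to 0.137). The fasted call was lost without fasted WT replicate 3 or 4 or fasted KO replicate 1 or 2 (edgeR adjusted p 0.0515 to 0.111) and without both fasted WT replicates 2 and 4 (0.138).

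**Figure D5:**
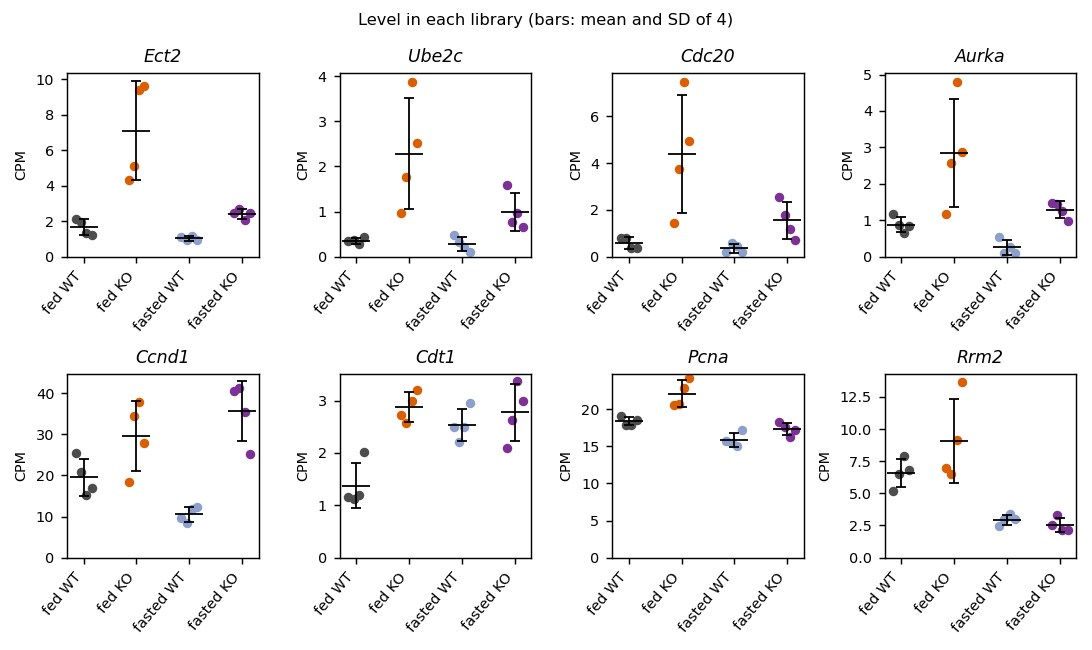
CPM of 8 of the genes in each library (points), with the mean and SD of the 4 libraries of each group (bars). Ect2, Ube2c, Cdc20 and Aurka show the spread of fed KO and its lowest replicate 1, Ccnd1 is high in fasted KO, Cdt1 is low in fed WT alone, and Pcna and Rrm2 are lower after the fast in both genotypes.

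Further genes of the same processes were taken from lists written from general knowledge. Their counts stand beside 14% of all genes tested higher and 16.9% lower in fed KO, and 13.8% higher and 14.5% lower in fasted KO. Of 53 tested further mitotic genes, 35 were higher and 1 lower in fed KO by edgeR, with a median log2 fold change of 0.93. In fasted KO 18 were higher and 2 lower, with a median of 0.64. By smallest p in fed mice they were Tubb5 (a beta tubulin) at 0.50 ± 0.07, Anln (anillin of the cleavage furrow) at 1.72 ± 0.26, Hmmr at 2.73 ± 0.44, Ckap2l at 2.12 ± 0.38 and Pbk (a mitotic kinase) at 2.32 ± 0.42. Pttg1 (securin) was the one that was lower in fed KO, at -0.35 ± 0.09. In fasted KO the smallest p among them belonged to Tubb5 at 0.39 ± 0.07, Spc24 at -0.83 ± 0.17, Pttg1 at -0.42 ± 0.09, Hmmr at 2.5 ± 0.57 and Cenpn at 1.22 ± 0.29.

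Of 47 tested further replication genes, 4 were higher and 5 lower in fed KO, and 0 higher and 8 lower in fasted KO, with medians of 0.01 and -0.06, so the share lower in fasted KO was near that of all genes. Mcm10 (a replication initiation factor) was at -1.13 ± 0.13 in fed and -0.36 ± 0.13 in fasted KO on the log2 scale, and Dbf4 (the activator of the Cdc7 kinase) at 0.94 ± 0.22 in fed KO. Rpa1, Rfc5 and Rpa3 were lower in fed KO, at -0.21 ± 0.07, -0.35 ± 0.11 and -0.52 ± 0.17. In fasted KO the genes that were lower included Gins1 at -1.02 ± 0.20, Brca1 at -1.05 ± 0.24, Slbp at -0.39 ± 0.12 and Pola2 at -0.35 ± 0.11. Of 42 tested further regulators, 7 were higher and 5 lower in fed KO and 6 higher and 4 lower in fasted KO, with medians of 0.15 and -0.03, shares near or under those of all genes in both directions. They included Cdkn2c (an inhibitor of Cdk4 and Cdk6) at 1.18 ± 0.11 in fed and 0.98 ± 0.11 in fasted KO, Wee1 (an inhibitor of Cdk1) at 1.29 ± 0.27 in fed KO, Mycn at -2.68 ± 0.51 and Rb1 at -0.46 ± 0.11 in fed KO, and Rbl2 (a DREAM subunit) at -0.47 ± 0.09 in fed and -0.50 ± 0.09 in fasted KO. In fasted KO Ccnd3 was at -0.46 ± 0.09, Cdkn1a (p21) at 1.64 ± 0.41 and Cdkn1b (p27) at 0.28 ± 0.08. All values named here passed edgeR's test.

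Markers of other liver cells were set beside these results, again against 14% of all genes higher and 16.9% lower in fed KO and 13.8% and 14.5% in fasted KO. The stellate cell list summed to 335.5 to 399.5 CPM in fed WT, 499.0 to 551.3 in fed KO, 336.1 to 409.7 in fasted WT and 430.0 to 525.1 in fasted KO, with 7 of 10 genes higher in fed KO and 4 in fasted KO. Hepatocyte markers were lower for 6 of 12 genes in KO in either state. Of the macrophage list 1 of 12 genes was higher in KO in each state. Of the endothelial list 1 of 10 was higher in fed KO and 0 in fasted KO. Of the bile duct list 0 of 5 tested passed in either state. Median log2 fold changes in fed and fasted KO were 0.27 and 0.26 over the macrophage list and 0.07 and 0.03 over the endothelial list. They were 0.56 and -0.06 over the bile duct list and 0.54 and 0.35 over the stellate list. Of the 12 lymphocyte markers, 10 were at or under 1 CPM in all groups and 0 of 10 tested passed in either genotype comparison. The part of these cell types in the mitotic values was not tested.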

How the data were processed

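The authors deposited raw counts of reads for each gene, as 1 table for all libraries. They used cutadapt 1.8, STAR 2.5.3a and HTSeq 0.9.1 with GRCm38, per the submitters' processing notes. Which annotation release and which strand setting went into the counting is not given in the sources used here. Libraries were made from polyadenylated RNA with a kit that keeps strand, per the labels' protocols. Lines of the table that name no gene (reads aligned to several places, 32.0% to 45.8% of all counts of a library, in no gene, 2.98% to 4.29%, or in more than 1, 1.05% to 1.65%) were left out.

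The 42 members and the further lists were chosen with earlier results of these data known, so lists are described by counts and medians, with no test. Counts were filtered with filterByExpr (13905 of 53714 genes kept), scaled by TMM (factors 0.903 to 1.14) and fitted in edgeR 4.0.16 with 1 coefficient per group over all 16 libraries. The quasi-likelihood F test with robust estimation gave 5 contrasts, adjusted by Benjamini-Hochberg over all genes tested, with a threshold of 0.05. The SE was taken as the size of the log2 fold change over the root of F. CPM uses the TMM library sizes, and mean log2 CPM a prior count of 2. Alternatives were DESeq2 1.42.0 size factors and Wald test, library totals alone, no filter, a replicate block, no robust estimation, an adjusted p threshold of 0.01, each library left out in turn, fasted WT replicates 2 and 4 left out together, only the 8 libraries of a contrast, a minimum average level, and a narrower mitotic list. The procedure was tested on simulated data. Positions and overlaps are from GENCODE M21 on GRCm38, and promoters from RefSeq GRCm38.p6.

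Library values are given for the members with the smallest p, those lower in a comparison and those whose calls changed without the 2 fasted WT libraries, and of each further list up to 5 called genes with the smallest p in each genotype contrast, of which 1 gene is not reported here. Gene totals were 19.6 to 27.3 M reads, and genes under 1 CPM rest on few reads and carry a large counting error.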

Additional observations from a re-analysis of the deposited data

Results flagged for a closer look

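In 7 groups of 4, a single library stood apart from the other 3 by more than the 95% limit of Dixon's test, out of 180 groups examined. Chance alone flags about 1 group in 20. E2f1 was at 1.55 CPM in fasted WT replicate 4 and at 0.955 to 1.02 CPM in the other 3. Cdt1 was at 2.01 CPM in fed WT replicate 4 and at 1.12 to 1.21 CPM in the others. Mcm2 was at 2.94 CPM in fed KO replicate 1, below the 3.79 to 3.95 CPM of the others. Of the 7, 3 were values of fed WT replicate 1, with Mcm6 at 7.97 CPM against 4.41 to 4.64, Cdk1 at 2.44 CPM against 1.52 to 1.67 and Bub1 at 0.457 CPM against 0.0927 to 0.147. Gins2 was at 1.15 CPM in fed KO replicate 3 and at 0.653 to 0.728 CPM in the others.

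The genotype effect differed between feeding states for 2 genes of the further lists by edgeR's interaction test. They were 1 of the 42 tested further regulators and 1 of the 47 replication genes, with 0 of the 53 mitotic genes. Of all genes tested, 1.07% were higher and 0.633% lower, so counts this small do not set the lists apart. Wee1, which restrains Cdk1, was at 1.29 ± 0.27 in fed and -0.22 ± 0.24 in fasted mice, a difference of -1.51 ± 0.36 (adjusted p = 0.0407). Mcm10 was at -1.13 ± 0.13 in fed and -0.36 ± 0.13 in fasted mice, a difference of 0.76 ± 0.18 (adjusted p = 0.0427).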

How the results depend on the processing

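Under every setting tried, 0 of the 42 genes were called lower in fed KO, and 16 to 23 mitotic genes were called higher there. Every comparison rests on 4 libraries per group. Most calls of the fasted comparison and of the fast in WT turned on the settings below. Shares of all genes called are given only for the main edgeR fit, library totals alone and the fit without the fasted WT libraries that held pancreas transcripts. Counts under the other settings therefore cannot show whether these genes moved or all genes did. Genes under 1 CPM carry the largest counting error. The cause of the moves was not tested.

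With library totals alone, higher genes in fed KO numbered 11 of S phase (median log2 fold change 0.57) and 2 of G1 (0.85). In fasted KO 23 of all, 3 of S phase (0.30) and 3 of G1 were higher, and after the fast in KO 0 were higher and the S phase median was -0.62. The DESeq2 Wald test gave 2 higher G1 genes in fed KO, 1 lower gene in fasted KO (the S phase gene Tk1) and, in the interaction, 1 higher (G1) and 1 lower (S phase). Without robust estimation 2 G1 genes were higher in fed KO and 1 gene, of S phase, was lower in fasted KO. With no filter on low counts, 8 of all and 6 mitotic genes were higher in fasted KO. Ccne2, the G1 gene higher after the fast in KO, was lost (0 higher) with DESeq2 size factors, library totals alone, no filter, no robust estimation, the replicate block and the 0.01 threshold.

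At a threshold of 0.01, 1 S phase and 0 G1 genes were higher in fed KO, and 4 of all, 0 of S phase and 3 mitotic genes in fasted KO. After the fast in WT, 1 was higher (0 of G1) and 5 lower (3 of S phase, 0 mitotic). In KO 0 were higher and 18 lower, 9 of them mitotic. With only the 8 libraries compared, 0 S phase genes were higher in fasted KO, 4 S phase genes were lower after the fast in WT, and 13 mitotic genes were lower after it in KO. Without fasted WT replicates 2 and 4, 4 of all, 0 S phase, 2 mitotic and 2 G1 genes (G1 median 1.29) were higher in fasted KO. After the fast in WT 1 was higher (0 of G1) and 4 lower (3 of S phase, 0 mitotic, 1 of G1, with a G1 median of -0.77), and the G1 median of the interaction was 0.44. With members of average log2 CPM of at least 0, the G1 median after the fast in WT was -0.89.

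Leaving out each library in turn, higher genes in fed KO numbered 2 to 5 (S phase) and 0 to 2 (G1), and in fasted KO 7 to 15 (all), 0 to 1 (S phase), 5 to 14 (mitotic) and 1 to 2 (G1, median 0.59 to 1.04), with 0 to 1 lower, an S phase gene. After the fast in WT 1 to 2 were higher (G1 0 to 1) and 7 to 15 lower, with 3 to 7 of S phase and 1 to 6 mitotic, and a G1 median of -0.60 to -0.16. After the fast in KO 0 to 1 were higher (of G1) and 21 to 33 lower, 11 to 21 of them mitotic. In the interaction 0 to 1 were lower, an S phase gene, and the G1 median was -0.16 to 0.20.

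Values that changed sign were all from genes that did not pass. With library totals alone the log2 difference in fed mice became 0.13 for Mcm4 and 0.16 for Tk1, and in fasted mice 0.11 for E2f1, 0.068 for Mcm4 and 0.16 for Rrm1. Without fasted WT replicates 2 and 4, it became 0.14 for E2f1, -0.047 for Mcm5 and -0.14 for Cenpa in fasted mice. Leaving out 1 library at a time, Tk1 lay between -0.22 and 0.16 in fed mice. In fasted mice the ranges were -0.22 to 0.12 for E2f1, -0.24 to 0.013 for Mcm4, -0.044 to 0.18 for Mcm5, -0.011 to 0.17 for Mcm6, -0.12 to 0.097 for Rrm1, -0.58 to 0.099 for Birc5 and -0.10 to 0.15 for Cenpa.

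Replicate numbers were not taken to pair the libraries, because the labels name nothing shared. Deviations from the group means correlated at -0.17 to 0.25 in 24 same-numbered pairs (median 0.031) and at -0.33 to 0.30 in 72 other pairs (median -0.0056). A library correlated best with its own number in 20 of 48 comparisons with another group, where 12 would do so with no pairing, so a partial pairing was not settled. With the replicate block 27 genes were higher in fed KO and 12 in fasted KO, 10 of them mitotic. After the fast 2 were higher and 12 lower in WT, and 0 higher and 29 lower in KO. The share of all genes called with the block is not given here, so these counts have no background to stand beside.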
